A study of Saccharomyces cerevisiae with 3 samples.

Results

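The cytosolic large-subunit ribosomal protein genes of budding yeast, Saccharomyces cerevisiae, were compared between arsenite-treated and untreated cells. Members were all genes whose symbol in the platform's probe annotation is RPL with a number and an optional A or B, or is RPP0, RPP1A, RPP1B, RPP2A or RPP2B. This gave 78 of the 5539 named genes on the array, each with 2 spots. Arsenite-treated wild-type cells received 0.2 mM As(III), arsenic in its trivalent form, for 1 h, and the other group was untreated wild-type cells. Both groups carried the wild-type genotype, and the labels used here give no strain background, mating type or medium. RNA of the 2 groups was hybridised together on each of 3 two-colour arrays, so that every array gives 1 treated-to-untreated ratio for a gene. Nothing in the labels ties the arrays to separate cultures, so p-values measure only the spread between these arrays, which may be technical. The test used draws much of that spread from all genes together rather than from the gene itself. For differences between gene copies it draws all of it from the pairs together.

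The large subunit of the ribosome holds the centre where peptide bonds form, the tunnel through which the new protein leaves, and the stalk that recruits elongation factors. Most of its proteins in yeast are encoded by a pair of near-identical genes, named A and B, that remain from an ancient duplication of the genome. Ribosomal protein genes are among the most strongly transcribed genes of growing yeast, and they are known to be repressed together when growth slows or the cell meets stress, through the TOR and protein kinase A pathways and the factors Rap1, Fhl1, Ifh1 and Sfp1.

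Values are given as log2 ratios, arsenite-treated over untreated, with each array centred on its median over all genes. A value of 0 is therefore the middle of the array, not a proven lack of change, and -1 is a ratio 2-fold below that middle. Before centring, the medians over all genes were -0.10, 0.52 and -0.14 on replicates 1, 2 and 3. Replicate 3, on which the dyes were exchanged, was multiplied by -1, because as deposited it ran against replicate 1 (r = -0.782) and replicate 2 (r = -0.613) over all spots. The sources do not state the direction of the deposited ratio. With the dyes that the labels name, reading it as Cy5 over Cy3 puts treated over untreated, and this direction is likely rather than certain. Were it the other way, every sign below would turn: the members that fell would have risen, beside 18.1% of all genes, and the lowest ranks would be the highest. The base of the logarithm is not stated either, and was read as 2. Copies A and B of a gene may cross-hybridise, and no description of the probes was used here. Ratios carry no level, so the wild-type yeast label could not be checked against marker levels. Among genes of other cell states that a culture could hold, 3 of 5 a-cell genes fell, 1 of 4 alpha-cell genes rose and 1 fell, and 3 of 8 meiosis genes rose, where 18.1% of all genes fell and 14.5% rose; their part in the results below was not tested.

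Large-subunit genes were lower in arsenite-treated cells almost without exception. The median over the 78 members was -1.70, -1.93 and -1.72 on replicates 1, 2 and 3, a mean of -1.78 ± 0.13 (SD, n = 3), beside 0 for all genes by construction. These medians were taken after the offset of each array was removed. Before centring, with replicate 3 turned, the member medians were -1.81, -1.40 and -1.86, with replicate 2 the least reduced. In RNA of whole cultures, fewer cells that express these genes and less of their RNA per cell cannot be told apart. Of the 78 members, 75 fell (limma, Benjamini-Hochberg adjusted p under 0.05 over all 5539 genes) and 3 did not pass. Over all genes 18.1% fell, against 96.2% of the members. By limma 0 members rose, and 1 member was higher at an unadjusted p under 0.05. A fall of at least 2-fold was called for 72 members, where the share over all genes was 8.34%, and a fall of at least 4-fold for 27, where it was 1.05%. On each of the 3 arrays 76 members lay below 0, and these were below 0 on all 3 arrays, as were 29.7% of all genes. Among the 100 genes with the lowest mean ratio on the array, 39 were large-subunit genes and 35 were small-subunit genes. These sets held 78 and 54 of all 5539 genes.

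**Figure D1:**
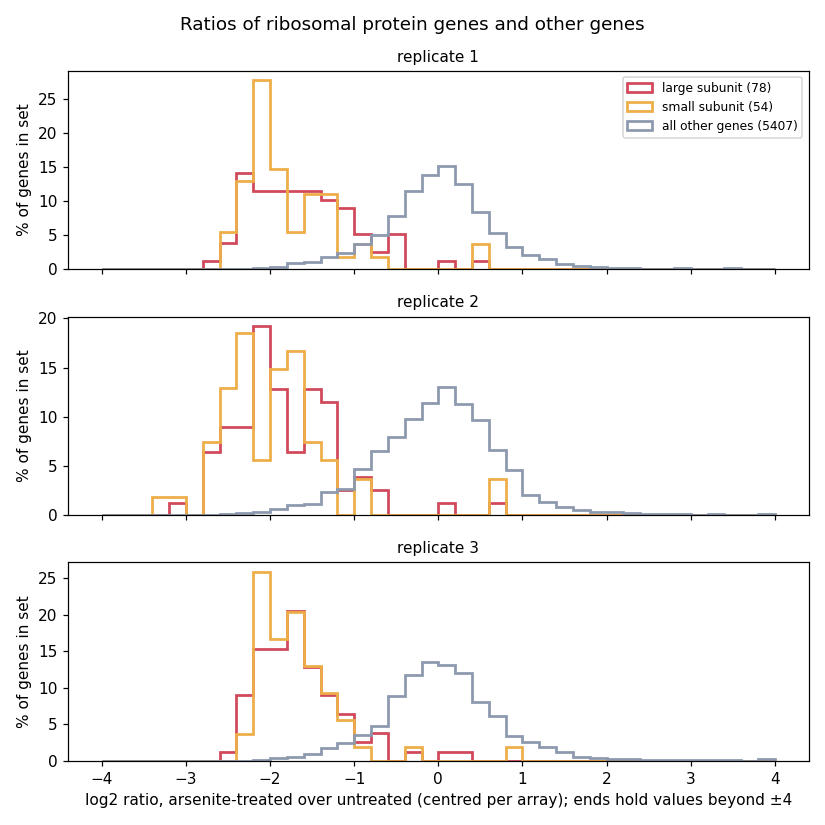
Share of genes in each set (y axis, percent of the set) by log2 ratio, arsenite-treated over untreated (x axis, bins of equal width), for each of the 3 arrays. The large-subunit genes (red) and small-subunit genes (yellow) form 1 hump well below 0 on every array, with medians of the large subunit at -1.70, -1.93 and -1.72, while all other genes (grey) are centred near 0; a few ribosomal protein genes lie apart, at or above 0.

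The small-subunit genes, the part of the ribosome most like this one, gave medians of -1.98, -1.95 and -1.77 on replicates 1, 2 and 3. The large-subunit median minus the small-subunit median was 0.28, 0.03 and 0.04 on the same arrays, a mean of 0.11 ± 0.14 (SD, n = 3). The large subunit was thus the less reduced of the pair on each array, by little on replicates 2 and 3. An exact sign-flip test over the 3 arrays gave a two-sided p of 0.25, which is the smallest p that 3 arrays allow. Of the 54 small-subunit genes, 52 fell, 1 rose and 1 did not pass, where 18.1% of all genes fell and 14.5% rose.

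The mean ratios of the members covered a wide range. Member means ran from -2.51 (RPL22A) to 0.43 (RPL43B), with an SD over members of 0.52, which includes the 5 that stand apart. The SD of a single member over the 3 arrays had a median of 0.25 and reached 1.07. Whether the bulk of the members differed more among themselves than between arrays was not tested. For 18 members the ratio lay below the member median on all 3 arrays, and for 23, among them the 5 that stand apart, above it on all 3. For the other 37 it did neither. Some members would lie on 1 side throughout even if their order were unrelated between arrays. Across the 78 members Pearson's r of replicate 1 was 0.780 with replicate 2 and 0.650 with replicate 3, and that of replicate 2 with replicate 3 was 0.499. Without the 5 members that stand apart, described below, these values were 0.635, 0.378 and 0.070. The order among the bulk of the members was therefore shared between replicates 1 and 2, and hardly between replicates 2 and 3. Replicate 3 alone had exchanged dyes, so a dye effect on single genes and another difference of that array cannot be told apart. With a dye effect in the fit, RPL41A was -1.54 against -1.85, and RPL39 was -1.72 against -1.61. These correlations are across genes, which are not independent replicates, and they are given as a description. The 2 spots of a member differed by a median of 0.21 on the array where they differed most. The largest such difference was 1.10, for RPL22B.

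**Figure D2:**
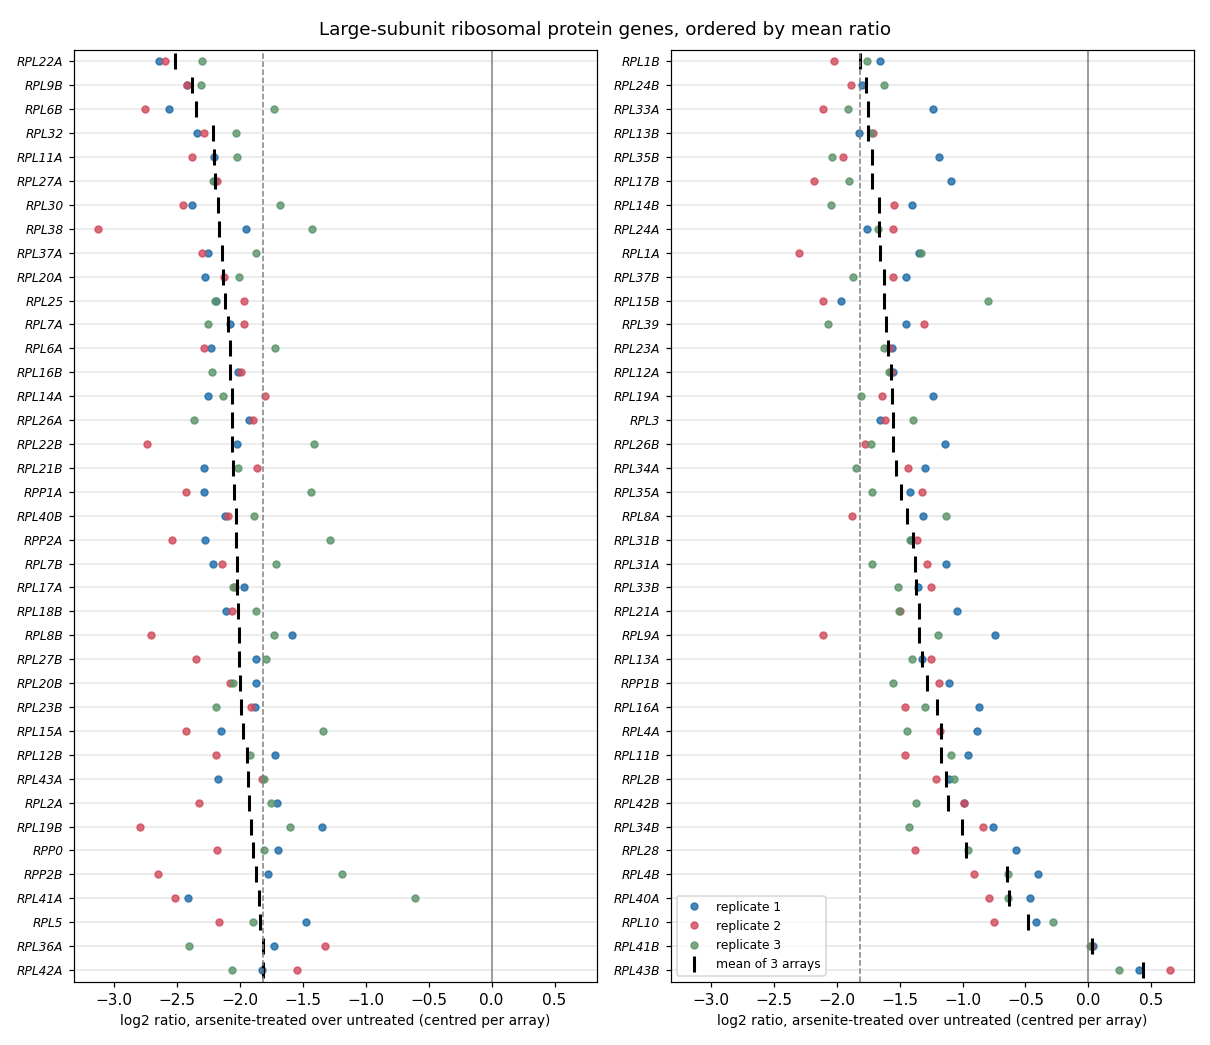
Log2 ratio, arsenite-treated over untreated (x axis), for each of the 78 large-subunit genes (y axis), ordered by mean. Each point is an array and the black tick is the mean of 3. The solid line is 0 and the dashed line is the median of the member means, -1.81. All but 2 members lie left of 0 on every array, and the last 5 rows (RPL4B, RPL40A, RPL10, RPL41B, RPL43B) stand apart at the right.

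The P stalk is the flexible arm of the subunit that draws elongation factors to the ribosome. All 7 of its genes, counting the stalk base protein Rpl12, fell, with a median of -1.89. Of all members 96.2% fell, beside 18.1% of all genes. The counts that fell by role, here and below, therefore show nothing particular to a role. RPP0, which encodes the scaffold of the stalk, had -1.70, -2.18 and -1.81 on replicates 1, 2 and 3 (mean -1.89 ± 0.25 (SD, n = 3), limma adjusted p = 6.92e-06). RPP1A and RPP2A, for acidic proteins that dimerise on that scaffold, had means of -2.05 ± 0.54 and -2.03 ± 0.66. RPP2B had -1.78, -2.65 and -1.19 (mean -1.87 ± 0.74). On replicate 3 these 3 acidic protein genes were the least reduced of their own values, and on replicate 2 they were the most reduced. The fourth, RPP1B, had -1.11, -1.18 and -1.55 (mean -1.28 ± 0.24) and ran the other way, lowest on replicate 3.

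The 5S particle, in which Rpl5 and Rpl11 bind the small ribosomal RNA of the subunit, had 3 measured genes, and all of them fell. RPL5 had -1.47, -2.16 and -1.89 (mean -1.84 ± 0.35, adjusted p = 1.17e-05). RPL11A, at -2.20 ± 0.18, was among the 8 lowest members, while its copy RPL11B had -1.17 ± 0.26.

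The genes for proteins near the active centre and the tRNA sites were the least reduced of the groups formed here, with a median of -1.13, and 6 of 7 fell. RPL3, whose protein reaches toward the peptidyl transferase centre, had -1.66, -1.62 and -1.39 (mean -1.56 ± 0.14, adjusted p = 2.59e-05). RPL28, whose protein is altered in classical cycloheximide-resistant mutants, had -0.57, -1.38 and -0.96 (mean -0.97 ± 0.40, adjusted p = 0.00210). RPL10, whose protein joins the subunit late and completes the active site, had -0.42, -0.75 and -0.28 (mean -0.48 ± 0.24). RPL10 was below 0 on all 3 arrays but did not pass (adjusted p = 0.0618, over 10 alternatives from 0.0385 to 0.375), and without replicate 3 it passed. The L1 stalk, which moves with the departing tRNA, is encoded by RPL1A (-1.66 ± 0.55) and RPL1B (-1.81 ± 0.19), and both fell. The groups by role are small, and no test between them was made.

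Of the 14 genes for proteins that line the exit tunnel or surround its mouth, all fell, with a median of -1.58. RPL25, the docking site at the tunnel mouth for the signal recognition particle and the nascent chain complex, had -2.19, -1.97 and -2.20 (mean -2.12 ± 0.13, adjusted p = 2.37e-06). It was the lowest of this group and varied little between arrays. RPL39, for a very small protein of the tunnel wall, had -1.45, -1.30 and -2.07 (mean -1.61 ± 0.41). RPL4B, for a protein whose long loop lines the tunnel, had -0.40, -0.91 and -0.64 (mean -0.65 ± 0.25, adjusted p = 0.0165, over 10 alternatives from 0.00566 to 0.172). Its fall was not called without replicate 1 or without centring.

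Of the 8 genes for proteins that bridge the subunits (RPL23, RPL24 and RPL41 copies) or that are made as fusions with ubiquitin (RPL40 copies), 7 fell. RPL24A and RPL24B, at -1.66 ± 0.10 and -1.77 ± 0.13, were close to each other. RPL40A, whose protein is released from a ubiquitin fusion, had -0.46, -0.79 and -0.64 (mean -0.63 ± 0.16, adjusted p = 0.0167, over 10 alternatives from 0.00707 to 0.193); its fall, too, was not called without replicate 1 or without centring. RPL41A, for the shortest protein of the ribosome, had -2.41, -2.52 and -0.61 (mean -1.85 ± 1.07). Its SD of 1.07 was the largest of the 78 members, and replicate 3 alone held it far above its value on the other arrays.

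The remaining 37 members, which were placed in none of the groups above, had a median of -2.01, and 36 of them fell. RPL22A had -2.64, -2.60 and -2.30 (mean -2.51 ± 0.18, adjusted p = 8.38e-07), the lowest ratio of the members and the second lowest of all 5539 genes. Its protein has been found to inhibit splicing of the transcript of its own copy, RPL22B. RPL9B had -2.42, -2.42 and -2.31 (mean -2.38 ± 0.06), with almost no spread between arrays. RPL6B (-2.35 ± 0.55), RPL32 (-2.22 ± 0.17), RPL27A (-2.20 ± 0.02), RPL30 (-2.17 ± 0.43) and RPL38 (-2.17 ± 0.87) completed the 8 lowest together with RPL11A. RPL30 is a classical case of feedback in yeast, since its protein blocks splicing of its own transcript. RPL38 had -1.95, -3.13 and -1.43, and its value on replicate 2 was the lowest of any member on any array. Near the other end of the order, RPL34B (-1.01 ± 0.36) and RPL42B (-1.12 ± 0.22) belonged with RPL28 to the least reduced members that were not outlying.

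A few members, 5 in all, stood apart from the rest by a rule that counts means over 3 scaled median absolute deviations from the member median, that is above -0.69 or below -2.93. All 5 lay on the upper side and above the member median on each array. The rule itself makes the latter likely, since it uses the mean of these same arrays. The 5 members were RPL43B, RPL41B, RPL10, RPL40A and RPL4B. RPL43B, for a zinc-binding protein of the subunit, had 0.40, 0.65 and 0.24 (mean 0.43 ± 0.20, adjusted p = 0.0888). Both of its spots were above 0 on all 3 arrays, between 0.16 and 0.69, and it was the one member with a ratio above 0 at an unadjusted p under 0.05. RPL41B had 0.04, 0.02 and 0.02 (mean 0.03 ± 0.01, adjusted p = 0.927). Its spots took opposite signs on each array, for example 0.23 and -0.15 on replicate 1, so that its narrow spread between arrays came from averaging spots that differed. The members just below the bound were RPL28 and RPL34B. The identity of the outlying members moved with the arrays: without replicate 2 they were RPL10, RPL41B and RPL43B, and without replicate 3 they were RPL41B and RPL43B.

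Of the 10 neighbours of these 5 genes, taken from the RefSeq gene order of assembly R64, 2 fell and 8 were not called, where 18.1% of all genes fell and 67.3% were not called. RPL43B lies between IME1 (-0.0040 ± 0.43) and SFC1 (0.23 ± 0.39), and RPL41B between PPH21 (-0.07 ± 0.09) and SRF1 (-0.08 ± 0.26). RPL40A lies between MLP2 (-0.11 ± 0.04) and SLN1 (-0.21 ± 0.23). None of these 6 genes passed by limma. Of the genes beside RPL10, BUD20 fell (-0.82 ± 0.06, adjusted p = 0.00302) and FMP25 did not pass (-0.15 ± 0.59). Of those beside RPL4B, PSF1 fell (-0.90 ± 0.16, adjusted p = 0.00186) and SNQ2 did not pass (-0.19 ± 0.69).

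Both copies were measured for 33 large-subunit pairs, counting RPP1 and RPP2. Pairs were formed from gene symbols alone, and how alike the proteins of a pair are was not examined. Both copies fell in 31 of these pairs, and in the other 2, RPL41 and RPL43, copy A fell and copy B did not pass. Taken singly, 96.2% of all members and 18.1% of all genes fell. The difference between copies, A minus B on the same array, is untouched by centring and was tested with limma over all 60 pairs of array genes whose symbols differ in a final A or B. In 10 large-subunit pairs the difference passed the adjusted p threshold of 0.05, with A lower in 6 and B lower in 4. Over all 60 pairs 26.7% passed, 16.7% with A lower and 10.0% with B lower. As 10 of 33 is near that background, and as most of the 60 pairs are ribosomal, the count says nothing particular to the large subunit. The median of A minus B over the pairs was -0.23, 0.12 and -0.10 on replicates 1, 2 and 3, and so took no common sign for A or B copies as classes.

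Among pairs with the lower A copy, the widest difference was that of RPL43. RPL43A had -2.18, -1.82 and -1.81, against 0.40, 0.65 and 0.24 for RPL43B, and the copies did not overlap. A minus B was -2.58, -2.47 and -2.05, a mean of -2.37 ± 0.28 (SD, n = 3, limma adjusted p = 6.50e-15), which is a ratio 5.15-fold lower for A than for B. This pair alone passed with any 1 array left out.

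RPL41 came next among these, with A minus B of -2.45, -2.54 and -0.62 (mean -1.87 ± 1.08, adjusted p = 8.34e-11). The difference had 1 sign on all arrays but was much smaller on replicate 3. The fit gave every pair the same standard error of 0.24, so the p of RPL41 does not reflect the spread of its own values. RPL11 followed (-1.25, -0.93 and -0.93, mean -1.04 ± 0.19, adjusted p = 0.000285), then RPL2, for one of the most conserved ribosomal proteins (-0.59, -1.12 and -0.68, mean -0.80 ± 0.28, adjusted p = 0.00721), and RPL42, for a protein at the exit site of tRNA (-0.84, -0.56 and -0.69, mean -0.70 ± 0.14, adjusted p = 0.0207). RPP1 passed as well, with -1.17, -1.25 and 0.11 (mean -0.77 ± 0.77, adjusted p = 0.00972). Its copies did not keep 1 order, since on replicate 3 RPP1A was slightly the higher.

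B was the lower copy for RPL40, RPL9, RPL16 and RPL21. RPL40 had A minus B of 1.66, 1.31 and 1.25 (mean 1.41 ± 0.22, adjusted p = 8.55e-07), with RPL40A at -0.63 ± 0.16 and RPL40B at -2.03 ± 0.13. RPL9 had 1.68, 0.31 and 1.11 (mean 1.03 ± 0.69, adjusted p = 0.000285): RPL9B was steady, and RPL9A had -0.74, -2.11 and -1.20. RPL16 had 1.15, 0.54 and 0.92 (mean 0.87 ± 0.31, adjusted p = 0.00300), with RPL16A at -1.21 ± 0.30 and RPL16B at -2.08 ± 0.13. RPL21 had 1.24, 0.37 and 0.51 (mean 0.71 ± 0.47, adjusted p = 0.0192), with RPL21A at -1.35 ± 0.26 and RPL21B at -2.06 ± 0.21. All 4 pairs kept 1 sign on all 3 arrays. Without replicate 1, 1 of the 10 differences passed, that of RPL43, and the other 9 kept their direction. RPL2 and RPP1 also did not pass without replicate 2, nor RPL21, RPL42 and RPL9 without replicate 3.

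**Figure D3:**
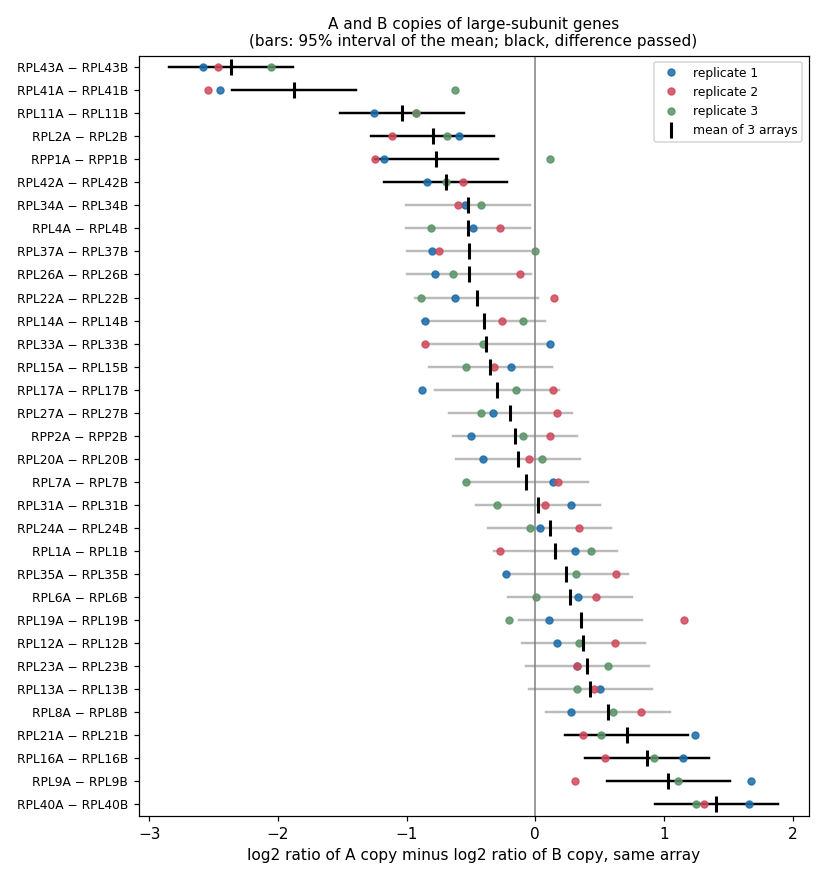
Difference between copies, log2 ratio of A minus log2 ratio of B on the same array (x axis), for the 33 large-subunit pairs (y axis); points are arrays, ticks are means and bars are 95% intervals from the limma standard error common to all pairs, black where the difference passed. The 6 pairs at the top have the lower A copy, led by RPL43 at -2.37, and the 4 at the bottom have the lower B copy, led by RPL40 at 1.41.

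In the other 23 pairs the difference did not pass, which does not show that the copies acted alike. RPL22 passed, with A lower, with the first spot only and without replicate 2, and RPL37 without replicate 3. The closest were RPL31 (0.02, 95% interval -0.46 to 0.50), RPL7 (-0.07, -0.55 to 0.41) and RPL24 (0.11, -0.37 to 0.59), and none of these 3 kept 1 sign on all arrays. RPL31A and RPL31B, for a protein at the tunnel mouth, had means of -1.38 ± 0.31 and -1.40 ± 0.03. RPL7A and RPL7B had -2.10 ± 0.14 and -2.02 ± 0.27. Over all 33 pairs, passed or not, A was the lower copy on every array in 11 and B in 9. Some pairs would keep 1 sign throughout even if the sign were unrelated between arrays. The share over all 60 pairs was not computed, so these counts show nothing particular to these pairs. Of those that did not pass, RPL34, RPL23 and RPL13 are named because their differences varied little between arrays. These were -0.52 ± 0.09, 0.40 ± 0.14 and 0.43 ± 0.09. The widest difference that did not pass was that of RPL8 (0.27, 0.82 and 0.60, mean 0.57 ± 0.28), also with 1 sign throughout. Across the 33 pairs, the mean of copy A and that of copy B were hardly related (Pearson's r = -0.085, Spearman's rho = -0.082), given as a description over genes that share their arrays. The departure of a copy from its own mean on 1 array was somewhat alike within pairs on replicate 3 (r = 0.407 over 33 pairs), less so on replicates 2 (0.215) and 1 (0.117). On replicate 3 both RPL15 copies were high for their pair, with RPL15A at -1.34 and RPL15B at -0.80, against -2.15 and -1.96 on replicate 1.

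Genes that serve the large-subunit proteins without being part of the ribosome were described by 3 lists. The lists were those of dedicated chaperones, of enzymes that methylate large-subunit proteins, and of transcription factors of ribosomal protein genes. Of 7 chaperones, 4 fell and 3 did not pass, with a median of -0.79, where 18.1% of all genes fell. SYO1, which carries Rpl5 and Rpl11 together, had -1.11, -1.48 and -1.27 (mean -1.29 ± 0.18, adjusted p = 0.000121). RRB1, the chaperone of Rpl3, fell (-1.06 ± 0.21), as did LOC1, which aids Rpl43 (-0.92 ± 0.10), and BCP1, which aids Rpl23 (-0.79 ± 0.40), the last not without replicate 1 or without centring. ACL4, the chaperone of Rpl4, had 0.38 ± 0.22, SQT1, that of Rpl10, had -0.09 ± 0.32, and PUF6, a partner of LOC1, had -0.19 ± 0.70 and passed as a fall without replicate 2. The ratios of ACL4 were above 0 on all arrays, at 0.34, 0.62 and 0.18, and did not pass (adjusted p = 0.135).

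Of 8 modifying enzymes, 2 fell (25%, near the 18.1% over all genes) and 6 did not pass, with a median of -0.02. Those that fell were RMT2, which methylates Rpl12 (-0.67 ± 0.25, adjusted p = 0.0139), and RKM1, which methylates Rpl23 (-0.65 ± 0.32, adjusted p = 0.0188). Neither was called without replicate 1 or without centring. Of 7 transcription factors, 4 fell and 3 did not pass, with a median of -0.57. RAP1, which binds most ribosomal protein promoters, had -0.83, -0.56 and -1.23 (mean -0.87 ± 0.34, adjusted p = 0.00344). IFH1, the coactivator that binds Fhl1, had -0.76, -1.43 and -0.48 (mean -0.89 ± 0.49, adjusted p = 0.00529). FHL1 (-0.63 ± 0.42, adjusted p = 0.0296) and ABF1 (-0.57 ± 0.41, adjusted p = 0.0449) also fell, and neither did so without replicate 1 or without centring, nor FHL1 without replicate 2 and ABF1 without replicate 3. CRF1, a corepressor described at Fhl1, had 0.35 ± 0.40 and passed as a rise without replicate 3, HMO1 had 0.21 ± 0.35 and SFP1 had -0.05 ± 0.11.

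**Figure D4:**
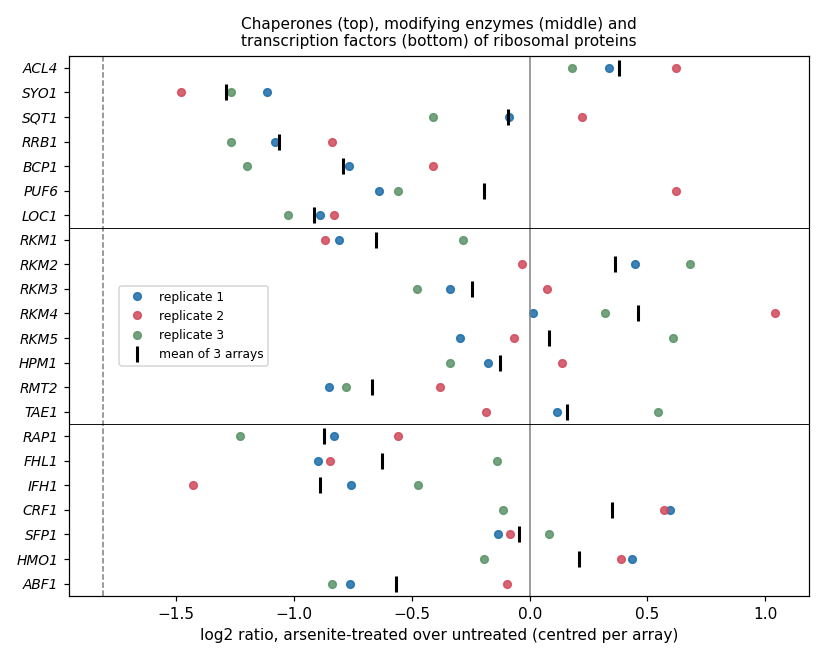
Log2 ratio, arsenite-treated over untreated (x axis), for the listed chaperones, modifying enzymes and transcription factors (y axis, 3 blocks). Points are the 3 arrays and ticks their mean. The solid line is 0 and the dashed line is the median of the large-subunit member means, -1.81. Every listed gene has a mean above the large-subunit median; SYO1 is the lowest at -1.29.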

How the data were processed

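Two-colour arrays measured RNA of arsenite-treated against untreated wild-type yeast, with 3 arrays; per the labels, the dyes of replicate 3 were swapped. The table the authors deposited holds 1 log ratio, read as log2, for each of 13056 spots; the sources used here give neither its base and direction nor the background correction and normalization, and it holds no intensities, so precision is limited by the number of arrays. Of these spots, 11138 carry 1 gene symbol in the platform annotation. All 78 members matched the RefSeq table of assembly R64 by gene ID.

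Spots were averaged per gene and array, replicate 3 was multiplied by -1, and arrays were centred on their medians over genes. In limma 3.58.1 (R 4.3.3), lmFit and eBayes compared each gene's mean with 0, two-sided, with Benjamini-Hochberg adjustment over 5539 genes and a threshold of 0.05; prior degrees of freedom were 10.8 beside 2 residual. Pair differences were fitted likewise over 60 pairs; their prior degrees of freedom were infinite, so all pairs share 1 standard error. The limma fits were run on simulated data with independent noise for each gene or pair. Such data hold no array or dye effect shared between genes, so the run cannot show how such effects bear on the p-values. Tables and figures used Python 3.11.15, pandas 2.3.3 and matplotlib 3.10.9.

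The members and lists were chosen with earlier results of these data known. Named were single-copy and stalk genes, the 8 lowest and 8 highest members, members that did not pass or stood apart, the copies of pairs that passed and of the 6 widest and 3 closest pairs, and listed genes that passed. Other genes were named after their values were seen. No sequences were used here.

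Alternatives were no centring, scaling, centring on non-ribosomal genes, a dye effect, a single spot per gene, robust empirical Bayes, leaving out each array and reading the logarithm as natural.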

Additional observations from a re-analysis of the deposited data

How the results depend on the processing

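The count of large-subunit members that fell stayed between 73 and 76 over 10 alternatives, and 0 rose in each by limma. The calls lost were those of RPL40A and RPL4B, without centring and without replicate 1, and RPL10 was gained without replicate 3. The mean over arrays of the member median was -1.78 with the processing described above. It stayed between -1.83 and -1.69, with -1.83 to -1.71 over the settings that leave out an array. It would be -2.57 were the deposited logarithm natural. Large minus small subunit stayed above 0 throughout, from 0.03 to 0.16. Pairs with the lower A copy numbered 1 to 6 and those with the lower B copy 0 to 4 when an array was left out (1 and 0 without replicate 1, 5 and 4 without replicate 2, 6 and 2 without replicate 3). These counts include RPL22, gained without replicate 2 and with the first spot only, where 7 pairs had the lower A copy, and RPL37, gained without replicate 3. A fit on 2 arrays has fewer residual degrees of freedom by construction, yet adjusted p-values of genes moved both ways. By limma, RPL11A went from 2.04e-06 over 3 arrays to 1.15e-20 without replicate 3. RPL10 went from 0.0618 to 0.301 without replicate 1. Calls on 2 arrays are therefore not on the same footing as those on 3. RPL21 and RPP1 did not pass with a dye effect in the fit, and RPL42 did not with the last spot only. Outlying members numbered 3 with the first spot only and 2 to 5 when an array was left out. For the factors, 2 fell without centring and 2 with the last spot only, against 0 and 0 of the modifying enzymes; when an array was left out, 2 to 3 factors fell and 0 to 1 rose (CRF1, without replicate 3), and 0 to 2 modifying enzymes fell and 0 to 1 rose (RKM2, without replicate 2). With the first spot only, 1 modifying enzyme rose, RKM4. The cause was not tested.

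Among the members and the pairs, signs turned only for values that had not passed over 3 arrays. RPL31A minus RPL31B was -0.060 with a dye effect, -0.123 with the last spot only, and from -0.110 to 0.179 when an array was left out. RPL24A minus RPL24B ran from -0.0032 to 0.187 and RPL7A minus RPL7B from -0.199 to 0.157 in such settings, and RPL41B was -0.023 with the last spot only. RPL19 turned without replicate 2 (-0.05, against 0.35 over 3 arrays), and RPP2 (0.01, against -0.16) and RPL20 (0.0012, against -0.13) without replicate 1. With 3 arrays the precision of every mean is low, and signal over background is unknown.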
